A study of Gallus gallus with 7 samples.

Results

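A set of 59 genes was read at a lower level in the ovaries of 3 hens (hens 9, 13 and 20) than in those of the other 4 (hens 8, 10, 12 and 42). They were chosen from the 24356 Ensembl genes of the count table by a rule on the measured values themselves. A gene was a member when its mean over the 7 hens was at least 5 CPM (the count divided by the library total and scaled to 1000000 counts, with no further scaling) and its lowest CPM among hens 8, 10, 12 and 42 was at least 1.5 times its highest CPM among hens 9, 13 and 20. Of the 24356 genes, 12577 met the limit on the mean, and the 59 members were 0.469% of these. The difference between these sets of hens is therefore what defined the members, and it is described below without a test.

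The line between the 2 sets of hens is not the study's comparison. The study set persistent layers (PL, hens 8, 9 and 20, n = 3, egg-laying rate of 100%) against non-persistent layers (NPL, hens 10, 12, 13 and 42, n = 4, rate of 82% or less), to ask how their ovaries differ in gene expression. All were Single-comb White Leghorn hens of the Shaver stock, an egg-laying type of chicken, caged singly under the same light and feed, with egg records from week 16 to week 76 of age, and the labels name no treatment or genetic change. They came from a flock of 40 that was divided into quartiles by laying, and the 2 groups stand for its upper and lower quartile. Each library held total RNA from about 10 mg of the ovarian body of 1 hen after follicles over 1 mm had been taken off. The hens with high values of the 59 genes (the high hens) were thus PL hen 8 and NPL hens 10, 12 and 42, and those with low values (the low hens) were PL hens 9 and 20 and NPL hen 13.

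The body of a hen's ovary is a mixed tissue. Its cortex carries the smallest follicles, each an oocyte surrounded by granulosa cells and, in some of them, by theca cells outside these. They are set in a stroma with vessels, nerves, smooth muscle and a covering epithelium. Granulosa and theca cells make steroid hormones, and follicles recruited from this pool are the ones that later fill with yolk. A gene can be read lower in such a sample because fewer cells of a type were present or because each cell held less of its RNA, and these cannot be told apart here.

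The libraries held between 21535850 and 27803563 counts. A count of 0 in the shallowest library would allow a level of up to 0.139 CPM (3 counts, counting error only), and every member lay far above this. The deepest library (hen 10) and the shallowest (hen 42) were both among the hens with high member levels. Genes with at least 1 count numbered 19863 to 20222 in hens 8, 10, 12 and 42 and 20055 to 20228 in hens 9, 13 and 20, so the ranges overlapped. The count table names genes by Ensembl ID alone and symbols for these IDs were not used here. The members are for that reason described by level and pattern, without functions, and the labelled tissue was not checked against marker genes.

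**Figure D1:**
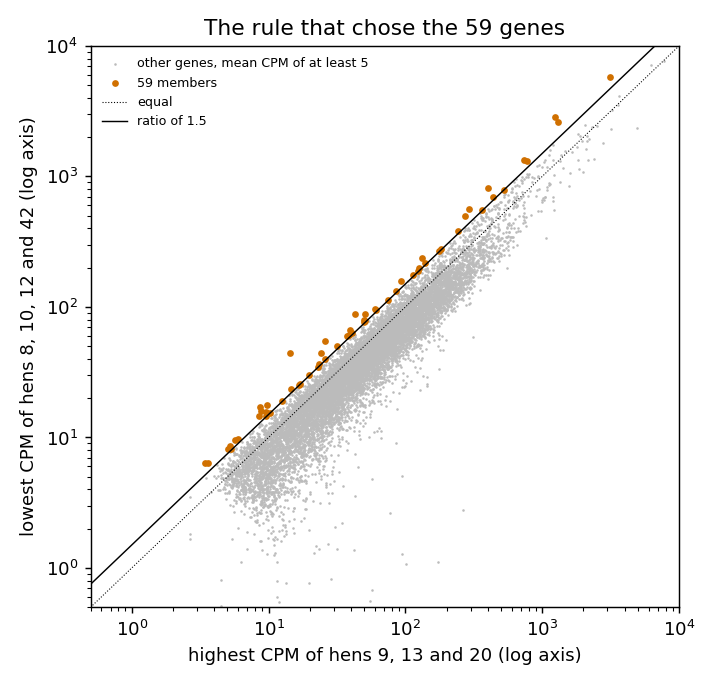
Each point is a gene whose mean reached 5 CPM, with its highest CPM in hens 9, 13 and 20 on the x axis and its lowest CPM in hens 8, 10, 12 and 42 on the y axis, both log axes. The 59 members (orange) lie on or above the solid line, where the ratio of these values is 1.5, and the dotted line marks equal values; 6 genes lie outside the axes.

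The members spanned a wide range of abundance. Their mean level ran from 5.54 to 5092 CPM with a median of 55.2 CPM and quartiles of 21.8 and 213 CPM. Over all 12577 genes that met the limit on the mean, the median was 40.9 CPM and the quartiles were 18.1 and 86.4 CPM. All 59 members were counted in every library, the lowest single count of a member was 57, and 54 of the 59 had at least 100 counts in each library. Counting error is thus small beside a 1.5-fold gap for most of them.

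The gap between the 2 sets of hens was modest for most members and large for few. The mean of hens 8, 10, 12 and 42 was a median of 2.24 times the mean of hens 9, 13 and 20, with a range from 1.72 to 3.86. It was at least 2-fold for 45 members, at least 3-fold for 5 and at least 4-fold for 0. The stricter ratio that the rule used, lowest against highest hen, had a median of 1.61 and a maximum of 3.07, and it was at least 2 for 6 members. At the edge of the rule the values pass smoothly: the last 3 members had ratios of 1.505, 1.503 and 1.502, and the next 3 genes, just outside, had 1.498, 1.498 and 1.497. On the side of abundance, 10 genes with a mean from 1 to under 5 CPM passed the ratio but not the level, the highest of them at 3.95 CPM, while the lowest member stood at 5.54 CPM.

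The member with the widest gap was ENSGALG00000030687. It lay at 47.1 CPM in hen 8, 44.1 in hen 10, 46.8 in hen 12 and 46.8 in hen 42. It lay at 14.3 CPM in hen 9, 13.9 in hen 13 and 10.4 in hen 20. The 4 high values were close to each other (coefficient of variation, the SD over the mean, of 3.04%), and the lowest of them stood 3.07 times above the highest of the other 3.

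The second widest gap belonged to ENSGALG00000041555, which was also the 12th most abundant gene of the whole table by mean CPM. Its level was 3238 CPM in hen 8, 2849 in hen 10, 3507 in hen 12 and 3108 in hen 42. It was 577 CPM in hen 9, 1158 in hen 13 and 1240 in hen 20. Here too the high hens were alike (coefficient of variation 8.62%), while hen 9 stood well under hens 13 and 20 (36.4% over these 3 hens). The gap was 2.30-fold.

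Several of the most abundant genes of the ovary were members. Of the 50 genes with the highest mean CPM, 5 were members, at ranks 3, 12, 14, 43 and 45; of the 1000 highest, 17 were. The opposite rule, with hens 9, 13 and 20 above the others, chose 60 genes (0.477% of the 12577) on plain CPM, of which 0 were among the 1000 most abundant. Those 60 genes had a median level of 21.5 CPM and a maximum of 180 CPM, and a median fold between the sets of hens of 1.99. Both sets of genes were chosen by their values, so this difference in abundance is a description and was not tested.

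The most abundant member, the gene of rank 3, accounted for much of the members' reads. It lay at 9320 CPM in hen 8, 6143 in hen 10, 5803 in hen 12 and 6492 in hen 42, against 1971 in hen 9, 2789 in hen 13 and 3129 in hen 20. Hen 8 stood above the other high hens for this gene, and hen 20 was the highest of the low hens. The lowest high hen was 1.85 times the highest low hen.

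Together the 59 genes took 3.02% of all counts in hen 8, 2.21% in hen 10, 2.45% in hen 12 and 2.40% in hen 42. They took 0.719% in hen 9, 1.10% in hen 13 and 1.14% in hen 20. The mean share was 2.52% ± 0.347 (SD, n = 4) in the first set and 0.989% ± 0.234 (SD, n = 3) in the second, which the rule fixes in direction. Without the most abundant member the shares were still 1.60% to 2.08% in hens 8, 10, 12 and 42, against 0.522% to 0.830% in the low hens.

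**Figure D2:**
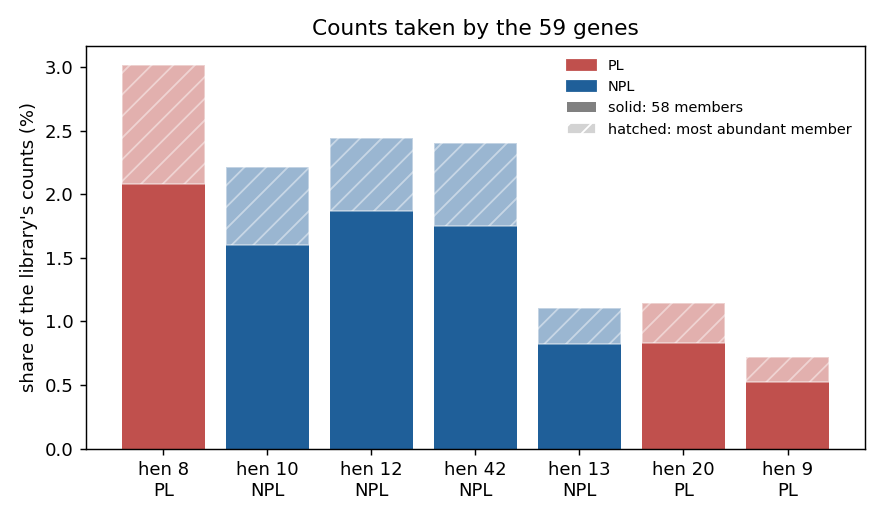
Bars give the share of each library's counts (percent) held by the 59 genes, split into the most abundant member (hatched) and the other 58 (solid), with PL hens in red and NPL hens in blue. Hens 8, 10, 12 and 42 lie between 2.21% and 3.02% and hens 13, 20 and 9 between 0.719% and 1.14%.

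The concentration of reads in abundant genes moved along the same line of hens. The 50 genes with the highest mean CPM took 10.9% to 12.0% of the counts in hens 8, 10, 12 and 42, against 7.95% to 9.39% in hens 9, 13 and 20. With the 5 members among them left out, the other 45 took 9.50% to 10.2% and 7.54% to 8.68%, so the ranges still did not overlap. The part of this concentration in the pattern of the members was not tested.

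The members are the outer edge of a broad pattern. Among the 12577 genes, 2158 (17.2%) were higher in each of hens 8, 10, 12 and 42 than in any of hens 9, 13 and 20, and 3622 (28.8%) were lower in each. The balance of these 2 counts depends on the scaling: with TMM scaling (trimmed mean of M values, which sets the bulk of genes equal between libraries) they were 2852 and 2791, and the share of the first among both went from 37.3% to 50.5%. With the TMM factors the same rule would choose 103 genes, among them all 59 members, and the opposite rule 38 genes; with DESeq2 size factors the numbers would be 100 and 38. On plain CPM they were 59 and 60, so of these scalings only plain CPM gave near equal numbers by the rule and its opposite. For the counts without overlap it was the reverse, with near equal numbers under TMM scaling and not on plain CPM. The members' median log2 difference between the sets of hens was 1.16 by plain CPM and 1.24 with TMM factors, against -0.082 and -0.00065 for all 12577 genes.

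Within each set, certain hens were at the extreme for many members, which the rule did not ask for. Among the low hens, hen 9 was lowest for 44 of the 59 members, hen 13 for 8 and hen 20 for 7; over all 12577 genes hen 9 was the lowest of the 3 for 34.9%. Among the high hens, hen 8 was highest for 31 members, hen 12 for 19, hen 42 for 9 and hen 10 for 0, where over all genes these hens were highest for 17.9%, 27.9%, 18.3% and 36.0%. Hen 10 was the lowest of the high hens for 39 members (19.1% of all genes). With TMM factors the counts for hen 9 lowest, hen 8 highest and hen 10 lowest of the high hens were 44, 33 and 47. The shares of all genes pool genes that run either way along this line of hens, so they are not a like comparison. Scores on the first principal component of log2 CPM placed these hens alike. This component used TMM factors and the 17051 genes kept for the edgeR test described below. They were 55.3 in hen 9 against 27.6 and 27.5 in hens 13 and 20. They were -10.4 in hen 10 against -31.9, -33.3 and -34.8 in hens 12, 42 and 8. The members' order was not tested apart from this component. The genes come from the same libraries and are not independent, so the member counts describe 7 ovaries.

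For many members the largest difference inside a set was at least as large as the gap, the lowest high hen over the highest low hen. This sets the largest difference within a set against the smallest between the sets. The means of the sets differed by a median of 2.24-fold. The highest of hens 8, 10, 12 and 42 was a median of 1.39 times the lowest, and the highest of hens 9, 13 and 20 was a median of 1.46 times the lowest. The ratio across the gap exceeded both of these inner ratios for 34 of the 59 members, and for the other 25 an inner ratio was at least as large as the gap. Inner ratios of at least 2 were found for 4 members in the high hens and for 10 in the low hens, with maxima of 3.18 and 4.04. For 19 members hens 13 and 20 were both at least 1.5 times hen 9, and for 7 they were both at least 2 times hen 9. In the widest such step, the lower of hens 13 and 20 was 3.83 times hen 9. For 3 members hen 8 was at least 1.5 times the next of the high hens.

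Spread within a set was larger for the members than for genes at large. The median coefficient of variation over hens 8, 10, 12 and 42 was 15.2% for the members and 9.74% for all 12577 genes. Over hens 9, 13 and 20 it was 21.4% and 10.9%. The members were chosen for large differences between hens, so a wider spread than that of all genes is not independent of the rule. The members followed one another closely over the 7 hens: the median Pearson correlation of log2 CPM over the 1711 pairs of members was 0.92 and the lowest was 0.54, and 90.2% of their centred variance lay on a single component. A high correlation is what the rule selects for, since the 2 sets of hens are apart for every member.

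**Figure D3:**
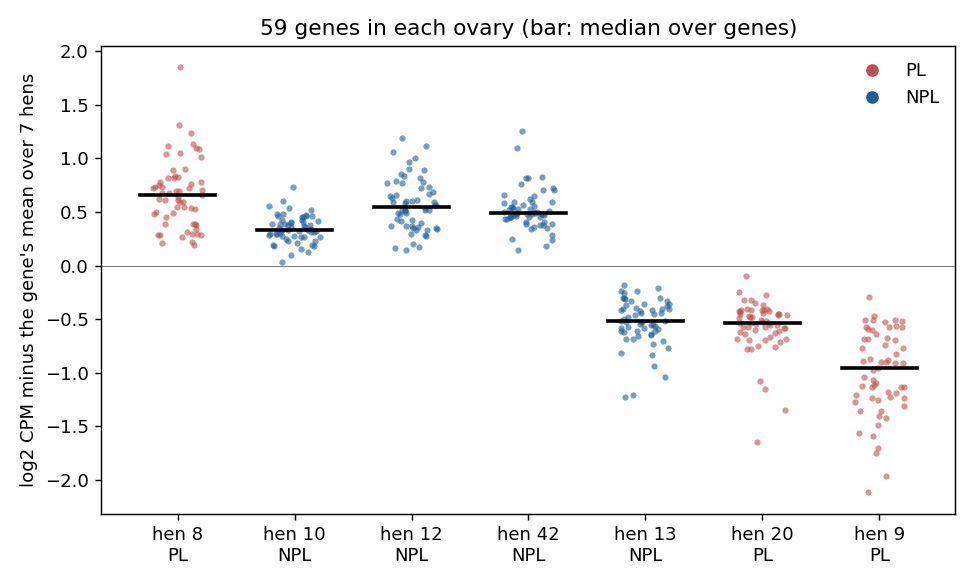
Each point is 1 of the 59 genes in 1 hen, as log2 CPM minus that gene's mean over the 7 hens (y axis), with PL hens in red, NPL hens in blue and the median over genes as a black bar. The medians are 0.66, 0.34, 0.55 and 0.49 in hens 8, 10, 12 and 42, and -0.52, -0.54 and -0.95 in hens 13, 20 and 9.

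Hen 9 was the lowest hen for most members in each range of abundance. Of the 21 members with a mean of at least 100 CPM, hen 8 was highest for 14 and hen 9 lowest for 17, with a median fold between the sets of 2.45. Of the 24 members between 20 and 100 CPM, hen 8 was highest for 10, hen 12 for another 10 and hen 9 lowest for 18, with a median fold of 2.10. Of the 14 members under 20 CPM, hen 8 was highest for 7 and hen 9 lowest for 9, with a median fold of 2.33. These limits of abundance were chosen after the values were seen. The members showed 34 different orders of the 7 hens, and the most frequent orders were each followed by 5 members.

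Between persistent and non-persistent hens, 0 of the 59 members passed the test in either direction (edgeR quasi-likelihood test over all 17051 genes kept, Benjamini-Hochberg adjusted p under 0.05), and 0% of all genes passed in each direction. The smallest adjusted p of a member was 0.886. At an unadjusted p under 0.05 there were 0 members higher in PL, against 1.58% of all genes, and 0 lower in PL, against 1.94% of all genes. DESeq2, a second count test, called 0 members (0.0362% of all genes higher, 0.0207% lower) and gave an unadjusted p under 0.05 to 0 members higher and 2 lower in PL (1.89% and 2.09% of all genes). PL and NPL ranges overlapped for all 59 members by construction, since PL hen 8 is high and NPL hen 13 is low in each. Over the 12577 genes 1.27% had every PL hen above and 2.51% every PL hen below the NPL hens. The same construction works against a call for any member, so the count of 0 called is not read as a lack of difference.

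The members leaned towards lower values in PL, and the rule shares in that lean. The median log2 difference, PL minus NPL, was -0.38 over the members and -0.0013 over all genes tested. It was below 0 for 56 of the 59 members, against 50.2% of all genes, and the members ranged from -0.98 to 0.49. The hens with low values were 2 of the 3 PL hens and 1 of the 4 NPL hens, so a gene that meets the rule tends to have the lower mean in PL whatever its relation to laying. The PL hens held 1.63% ± 1.22 (SD, n = 3) of their counts in the 59 genes and the NPL hens 2.04% ± 0.633 (SD, n = 4), and the difference was smaller than the spread within either group.

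The precision of this comparison was low for the members. The median standard error of their log2 difference was 0.44, against 0.22 for all genes. The rule favours a wider error and wider intervals, because it puts hens of each laying group on both sides of a gap of at least 1.5-fold. The 95% confidence interval lay within 2-fold in either direction for 4 of the 59 members, against 71.1% of all genes, and within 4-fold for 53. For the other 55 members, a difference of 2-fold or more between the laying groups lay within the interval in at least 1 direction.

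ENSGALG00000030687, the gene with the widest gap, averaged 23.9 ± 20.1 CPM (SD, n = 3) over the PL hens. Over the NPL hens it averaged 37.9 ± 16.1 CPM (SD, n = 4), and the fitted log2 difference was -0.65 (SE 0.60). ENSGALG00000041555 averaged 1685 ± 1385 CPM over the PL hens and 2656 ± 1035 CPM over the NPL hens, with a fitted log2 difference of -0.65 (SE 0.61). The edgeR adjusted p was 0.886 for both. As the rule requires of every member, PL hen 8 lay on the high side with NPL hens 10, 12 and 42. NPL hen 13 lay on the low side with the other PL hens.

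Only 3 members had a higher fitted level in PL. For the 2 of them described here, that direction rested on hen 8, the only PL hen on the high side of the rule. ENSGALG00000020316 lay at 50.8 CPM in hen 8 but at 6.22 in hen 9 and 8.74 in hen 20, against 17.3, 24.0, 6.03 and 16.0 CPM in NPL hens 10, 12, 13 and 42. Hen 8 was 2.12 times the next of all hens, the widest such step among the members, and the other PL hens were below 3 of the 4 NPL hens. The log2 difference was 0.49 (SE 0.74, edgeR adjusted p = 0.915), and without hen 8 it was -1.14. The rule sets hens 9 and 20 below NPL hens 10, 12 and 42 in every member. A value below 0 without hen 8 thus follows from the rule and is not a trait of this gene.

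ENSGALG00000011663 showed the same arrangement at a higher level. It lay at 179 CPM in hen 8, 35.1 in hen 9 and 49.6 in hen 20, and at 94.5, 91.7, 46.8 and 79.8 CPM in hens 10, 12, 13 and 42. The log2 difference was 0.19 (SE 0.54, edgeR adjusted p = 0.952), and it was -0.94 without hen 8 and -0.0059 without hen 13. Both shifts go the way that the rule sets for any member, since it puts hen 8 high and hen 13 low.

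**Figure D4:**
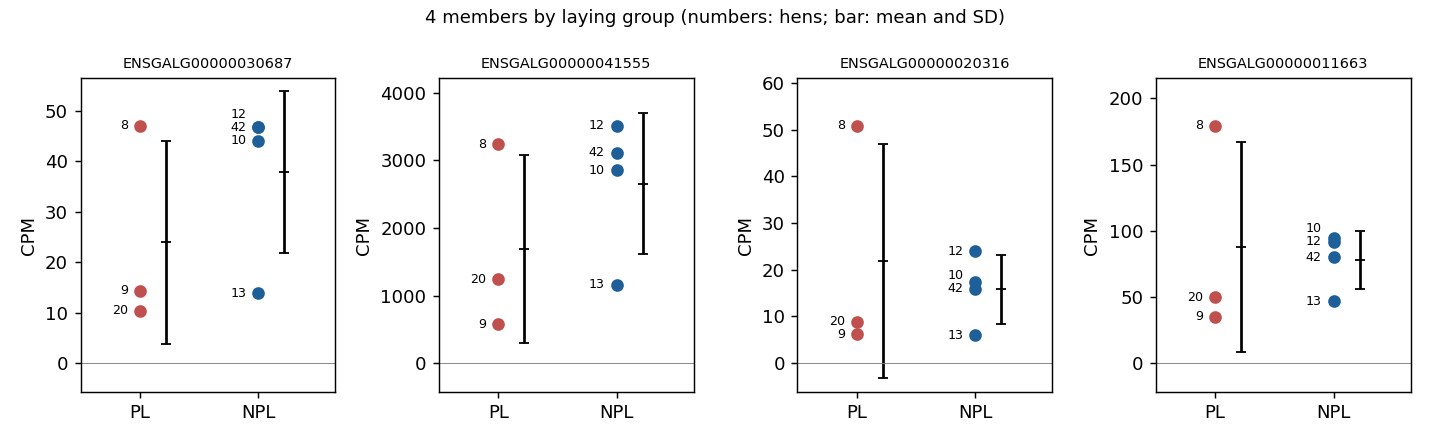
CPM of 4 members in each hen (points, with hen numbers) by laying group, with the mean and SD of the group beside the points. In every panel PL hen 8 lies far above PL hens 9 and 20, and NPL hen 13 lies below NPL hens 10, 12 and 42. The rule sets this order for every member.

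The laying groups were also set side by side within each set of hens, where the rule sets no order directly. The members all run one way along the line of hens, whereas the shares of all genes pool both ways (2158 genes higher in each high hen, 3622 lower). Hens 8 and 9 also held the end scores of the first component over the 17051 genes tested (-34.8 and 55.3). A departure of the members from those shares is therefore not independent of the rule, and is not read as a laying-group difference. Among the high hens, PL hen 8 was above all 3 NPL hens for 31 members (52.5%, against 17.9% of all 12577 genes) and below all 3 for 8 (13.6%, against 30.1%). The median log2 ratio of hen 8 to the mean of hens 10, 12 and 42 was 0.13 over the members (range -0.43 to 1.41). Over all 12577 genes it was -0.044. Among the low hens, PL hens 9 and 20 were both below NPL hen 13 for 28 members (47.5%, against 31.9% of all genes) and both above it for 8 (13.6%, against 30.5%), and hen 13 lay between them for 23 (39.0%, against 37.6%). The median log2 ratio of the mean of hens 9 and 20 to hen 13 was -0.21 over the members (range -0.73 to 0.58). Over all 12577 genes it was -0.00055. The low side of the PL hens in the low set was that of hen 9: hen 20 held 1.14% of its counts in the 59 genes and hen 13 held 1.10%, and hen 20 was the highest of the low hens for 26 members and hen 13 for 28. With a single PL hen in one set and a single NPL hen in the other, these values have no replicate check.

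With the first principal component of log2 CPM over the 17051 genes tested as a covariate, the members' PL minus NPL differences centred on 0. The median log2 difference was -0.0074, with 30 members below 0 and 29 above, and a range from -0.48 to 0.92. Over all genes the median was -0.0039, and 51% were below 0. Again 0 members passed the edgeR test (smallest adjusted p 0.819; 0% of all genes in each direction). At an unadjusted p under 0.05 there were 3 members higher in PL (2.57% of all genes) and 1 lower (3.23% of all genes). The median standard error of the members fell to 0.17 from 0.44, and that of all genes was 0.15 with the covariate. The interval lay within 2-fold for 57 of the 59 members and for 77% of all genes. The component carries the same line of hens that chose the members, its scores being 27.5 or more in the low hens and -10.4 or less in the high hens, so it takes up their variation by construction. The 3 members higher in PL were those with a higher fitted level in PL without the covariate, led by ENSGALG00000020316 (log2 difference 0.92, SE 0.23, edgeR adjusted p = 0.819). Of the PL hens only hen 8 was high for this gene (50.8 CPM, against 6.22 in hen 9 and 8.74 in hen 20). No hen was left out of the fit with the covariate, so how far this estimate rests on hen 8 was not tested.

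**Figure D5:**
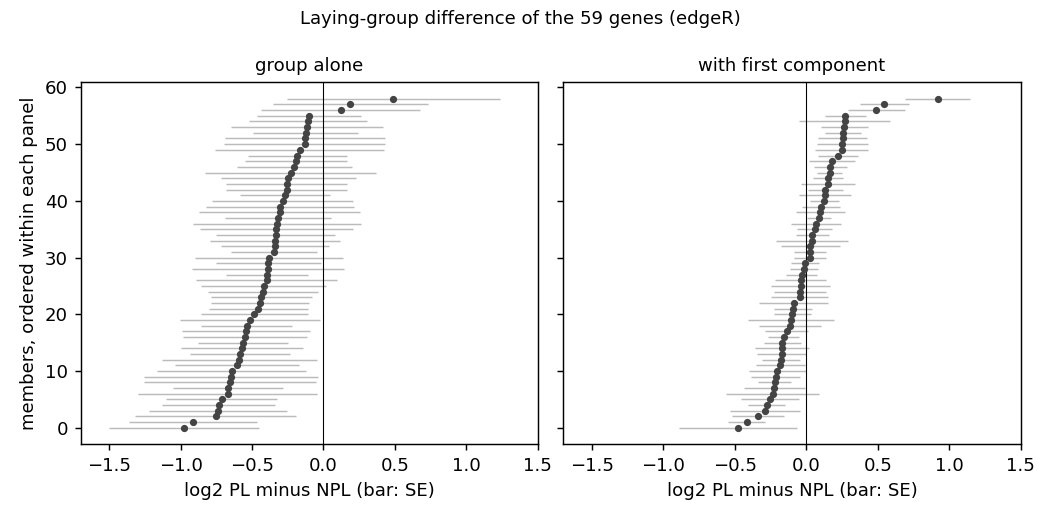
Each point is the log2 difference PL minus NPL of 1 of the 59 genes with its standard error (bar), ordered within each panel, from the edgeR fit with group alone (left) and with the first component as a covariate (right). The median goes from -0.38 to -0.0074 and the median standard error from 0.44 to 0.17.

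Leaving out single hens showed how far the comparison rests on those that cross the line. Without PL hen 8 the median log2 difference of the members was -1.10 and 55 of the 59 had an unadjusted p under 0.05, all lower in PL, against 10.6% of all genes, but 0 passed the edgeR adjustment. In that comparison both remaining PL hens are low by the rule, so neither the direction nor the count is a finding. Without NPL hen 13 the median was -0.61, and 10 members had an unadjusted p under 0.05, all lower in PL, against 2.99% of all genes. There the 3 remaining NPL hens are all high by the rule and 2 of the 3 PL hens low, so nothing is read from that direction or that count either. Without PL hen 9, the lowest hen for most members, the median was -0.085. Without PL hen 20 it was -0.20, and without NPL hen 10, 12 or 42 it was -0.34, -0.27 or -0.28.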

How the data were processed

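Ovarian RNA of 7 hens was sequenced, 1 library per hen. The authors deposited raw counts per Ensembl gene ID, whole numbers without normalization. The submitters' processing notes name Trim Galore and the build galGal6. The sources used here do not give the aligner, counter, annotation release or the strand setting of the counting. Whether the counts keep overlapping or antisense genes apart is therefore not known. Columns were tied to hens by the names in the labels. Over the 21 pairs of libraries, chi-square per degree of freedom (genes with at least 20 summed counts) was 17.0 to 163, so all were kept as separate samples. Each hen is a separate animal. The members, the gene lists and the tests were chosen with earlier results of these data known.

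CPM was computed as count over library total. PL against NPL was tested with edgeR 4.0.16 (R 4.3.3; filterByExpr, 17051 genes kept, all 59 members among them; TMM factors 0.956 to 1.04; robust quasi-likelihood fit; Benjamini-Hochberg over all genes; threshold 0.05) and, as an alternative, DESeq2 1.42.0. The edgeR script was tested on simulated data. Standard errors come from dividing the log2 fold change by the root of F. The reference table (25635 genes of GRCg7b) holds an Ensembl ID for 0 genes, so 26 gene lists were not tested and no sequences are shown. The IDs printed are the 2 members with the widest gap and the 2 with the smallest p among those higher in PL. Alternatives were other scalings, no low-count filter, DESeq2, the first component as a covariate, each hen left out, and other limits in the rule.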

Additional observations from a re-analysis of the deposited data

Results flagged for a closer look

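In the 4 NPL hens, ENSGALG00000030687 lay at 44.1, 46.8 and 46.8 CPM in hens 10, 12 and 42 and at 13.9 CPM in hen 13. The gap below the other hens was 0.917 of the group's range, above the critical value of Dixon's test for 4 samples (at 95%, which chance passes in about 1 group in 20). The rule that chose the gene already puts hen 13 below these hens. Of 12 values checked in this way, 1 was past the limit. Among the 59 members, 6 were past it, and of all 12577 genes 6.10% were. The rule puts hen 13 below the other NPL hens in every member, so the member count is not a like comparison with all genes. The test was not applied to PL, which has 3 hens.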

How the results depend on the processing

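The count of 0 members called between PL and NPL held in each direction under all 12 alternatives (2 other scalings, no low-count filter, DESeq2, the first component as a covariate, and each of 7 hens left out). The rule splits both laying groups across a gap of at least 1.5-fold for every member. With all hens in the fit this works against a call, so the 0 is not read as a lack of difference. The number with an unadjusted p under 0.05 moved from 0 higher and 0 lower in PL to 2 lower by DESeq2 and to 3 higher and 1 lower with the first component, and with 1 hen left out it was 0 higher and 0 to 55 lower. The median log2 difference of the members lay between -0.39 and -0.38 under the other scalings, the filter and DESeq2, at -0.0074 with the first component, and between -1.10 and -0.085 with 1 hen left out. With 1 hen left out, ENSGALG00000020316 ranged from -1.14 to 0.94, changing sign without hen 8, and ENSGALG00000011663 ranged from -0.94 (without hen 8) to 0.58, changing sign also without hen 13 (-0.0059). The rule sets the direction of the shifts without hens 8 and 13 for every member, so nothing is read from these changes of sign. The number of genes that met the rule (59) was 448 at the looser ratio tried, 6 at a ratio of 2, 103 with TMM factors and 100 with DESeq2 size factors; with a mean of at least 1 or 20 CPM it was 69 and 45. With 1 hen left out it was between 65 and 269, the highest numbers being 269 (hen 13 left out), 159 (hen 20), 139 (hen 10) and 89 (hen 12). Fewer hens make the rule easier to meet, and all 59 genes met it in each of these 7 cases. No paired analysis was possible because the PL and NPL hens share no sample numbers.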
